A study of Mus musculus with 24 samples.

Results

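RNA from CD45- cells of the ileum was compared between Hoil1-/-Il4raΔIEC mice, which lack a functional HOIL1 and carry a deletion of Il4ra in the intestinal epithelium, and Hoil1+/+Il4raΔIEC mice, which carry the same epithelial deletion and an intact Hoil1. Members were the CD45 negative libraries labelled Hoil1-/-Il4raflox/flox+Vil1cre (libraries 3, 4 and 5) and Hoil1+/+Il4raflox/flox+Vil1cre (libraries 9, 10 and 11), 6 of the 24 libraries of the series. The other libraries are CD45- cells of mice with floxed but intact Il4ra (f/f), and CD45+ cells of the same 4 genotypes, with 3 libraries in each of 8 groups. The mice were on a C57BL/6J background, of both sexes and untreated, and were 9.6, 9.6 and 9.1 weeks old for libraries 3, 4 and 5 and 9.7, 9.7 and 9 weeks old for libraries 9, 10 and 11. Loss of Hoil1 (the Rbck1tm1Kiwa allele) affected every cell of the Hoil1-/- mice, and this allele can still give a reduced amount of the amino-terminal part of the protein. The Vil1 promoter drives Cre in intestinal epithelial cells (IECs), so stromal and endothelial cells of both groups kept Il4ra. The comparison asks which transcripts of non-hematopoietic cells change with loss of HOIL1 when IECs cannot respond to IL-4 and IL-13.

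HOIL1, encoded by Rbck1, is a subunit of the linear ubiquitin chain assembly complex (LUBAC), together with HOIP (Rnf31) and SHARPIN (Sharpin). LUBAC attaches linear ubiquitin chains to components of receptor complexes such as those of the TNF receptor, which promotes NF-κB signaling and restrains cell death. CD45- cells of the ileum include absorptive enterocytes, goblet, Paneth, tuft and enteroendocrine cells, as well as blood and lymphatic endothelium, fibroblasts, smooth muscle, glia and neurons. Several of these cells make signals that activate group 2 innate lymphoid cells (ILC2), such as IL-25 from tuft cells and IL-33 from stromal and endothelial cells.

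The 6 libraries differed in their cellular content in ways that the genotype labels do not give, and libraries 9 and 10 stood apart. Levels are given as CPM, counts of a gene scaled to a common library size by the TMM method. Summed over 10 pan-epithelial markers such as Epcam and Krt8, the level was 3343, 1499 and 7914 CPM in Hoil1-/- libraries 3, 4 and 5, and 14647, 12457 and 3974 CPM in Hoil1+/+ libraries 9, 10 and 11. Summed over 15 blood endothelial markers such as Pecam1 and Plvap, it was 20468, 23823 and 10320 CPM against 6270, 6175 and 17792 CPM. Libraries 9 and 10 were thus rich in epithelial and poor in endothelial transcripts, and library 11 was nearer to libraries 3 and 4. The mean log2 level of the pan-epithelial minus that of the blood endothelial markers, called the epithelial against endothelial level, was used as a covariate in an alternative fit. Transcripts encoded by the mitochondrial genome took 8.24, 6.87 and 9.84% of the counts in libraries 3, 4 and 5, and 20.1, 15.4 and 7.18% in libraries 9, 10 and 11. Xist, expressed from the inactive X chromosome, was high in libraries 4, 9 and 10, whereas Y-linked genes marked libraries 3, 5 and 11. Depth was uneven as well, with 17566000, 22507000 and 6028300 counts on genes in Hoil1-/- libraries 3, 4 and 5 and 10909000, 8082800 and 68345000 counts in Hoil1+/+ libraries 9, 10 and 11. Across the 16453 genes tested, the closest pair between the groups, libraries 3 and 11 (Pearson r = 0.963 of log2 CPM across genes), was as close as the closest pair within a group, libraries 3 and 4 (r = 0.963), although genes are not independent replicates. The defining marker of the sort, Ptprc (CD45), lay between 0.28 and 3.81 CPM in all 6 libraries. Cd3d, which marks T cells, had no count in any of them, but other T cell markers did. Summed over 11 T cell markers, the level was 19.3, 10.9 and 4.93 CPM in libraries 3, 4 and 5. It was 30.7, 20.1 and 3.13 CPM in libraries 9, 10 and 11. Fewer cells of a type and less RNA per cell cannot be told apart in such bulk samples. Libraries were made from individual mice.

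**Figure D1:**
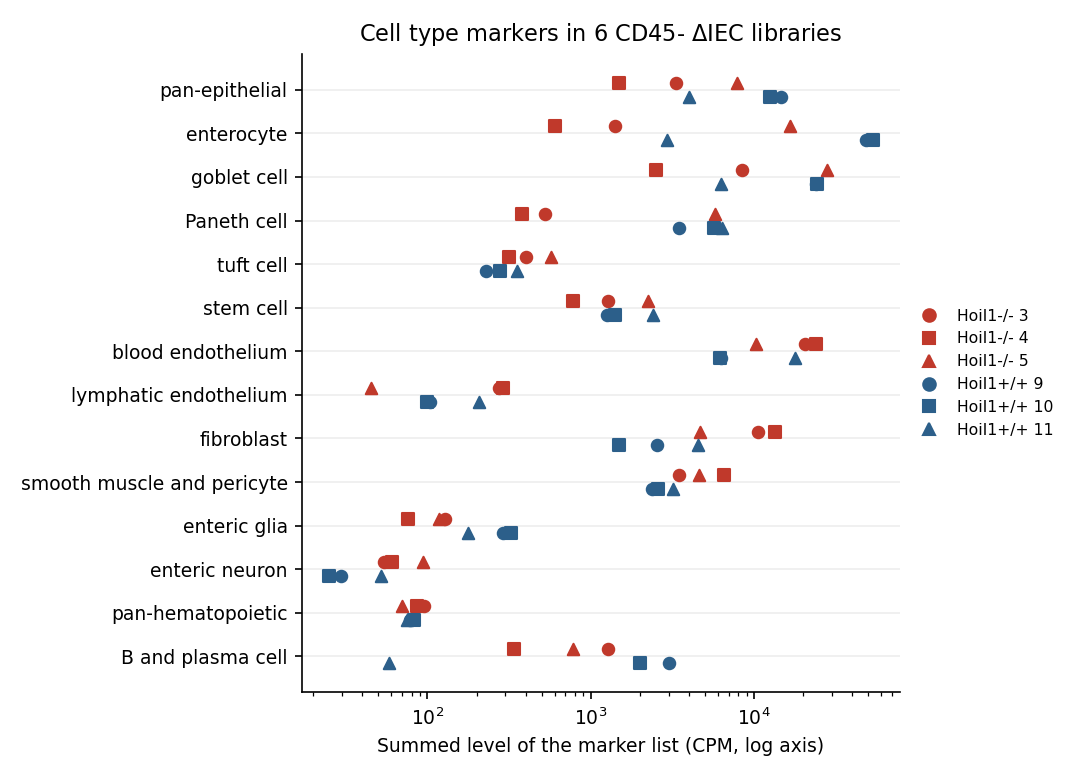
Summed level of 14 cell type marker lists (CPM, log axis) in each of the 6 CD45- ΔIEC libraries, with Hoil1-/- libraries in red and Hoil1+/+ libraries in blue. Libraries 9 and 10 lie at the epithelial and enterocyte end (48252 and 53164 CPM of enterocyte markers) and library 11 (2917 CPM) lies among the Hoil1-/- libraries, while the fibroblast lists of the groups do not overlap.

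Rbck1 was the only gene that changed in this comparison at an adjusted p under 0.05. Rbck1 (ENSMUSG00000027466.15) is a minus-strand gene of chromosome 2 (GRCm38, 152316334 to 152332653). Its level was 4.84, 7.90 and 3.61 CPM in Hoil1-/- libraries 3, 4 and 5, and 119, 84.0 and 102 CPM in Hoil1+/+ libraries 9, 10 and 11. All 3 Hoil1-/- libraries were far below all 3 Hoil1+/+ libraries, with means of 5.45 ± 2.21 CPM (SD, n = 3) and 102 ± 17.4 CPM (SD, n = 3). On the log2 scale the fold change was -4.20 ± 0.42 (standard error, SE), with an adjusted p of 0.0115 by the quasi-likelihood test of edgeR and Benjamini-Hochberg adjustment, so that 5.37% of the mean Hoil1+/+ level was left. In f/f mice the same contrast gave -4.26 ± 0.50 (SE; adjusted p = 0.0188, edgeR), and the interaction term was 0.06 ± 0.56 (SE; adjusted p = 0.990, edgeR). In CD45+ cells of ΔIEC mice Rbck1 was at 14.1 and 6.16 CPM in 2 Hoil1-/- libraries and at 143, 139 and 119 CPM in 3 Hoil1+/+ libraries. Counts were summed over the whole gene, so they do not separate intact from truncated transcripts. The adjusted p depended on the libraries that estimate the spread. It was 0.805 with all 12 CD45- libraries in the fit, 0.0885 with the 6 ΔIEC libraries alone, and 0.232, 0.107 and 0.0679 without library 3, 5 or 9 (edgeR), with log2 fold changes from -4.57 to -3.99 over all the alternatives.

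**Figure D2:**
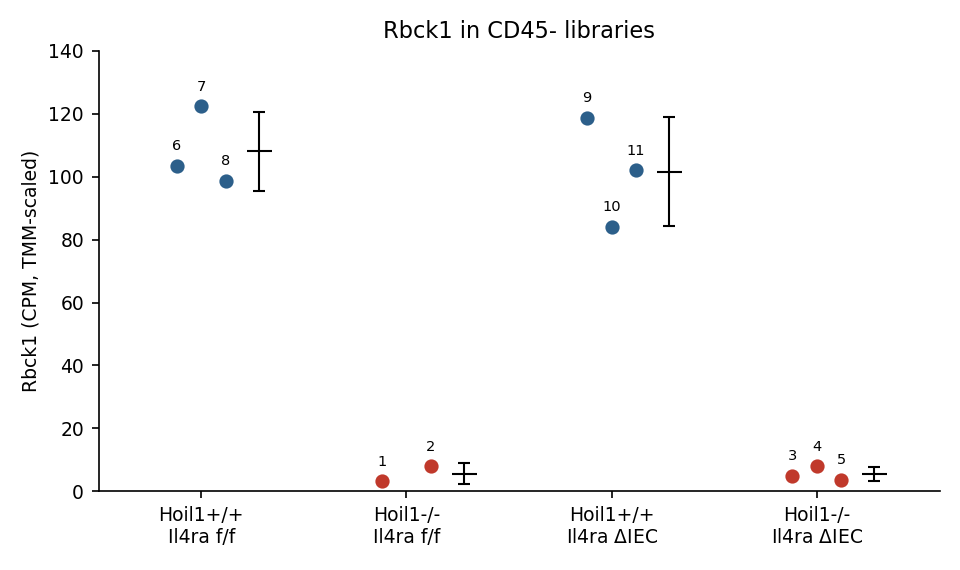
Level of Rbck1 (CPM) in the 11 CD45- libraries of the authors' sample list, by genotype, with library numbers above the points and the mean and SD beside them. The 5 Hoil1-/- libraries lie between 3.20 and 7.93 CPM and the 6 Hoil1+/+ libraries between 84.0 and 122 CPM.

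Across the 16453 genes tested, 0 were called higher and 1 lower (0.00608% of all), although 433 higher (2.63%) and 828 lower (5.03%) had an unadjusted p under 0.05, 7.66% in both directions together. This share was 4.25% with the epithelial against endothelial level as a covariate and 3.41% with sex as one. The 3 Hoil1-/- libraries lay wholly above the 3 Hoil1+/+ libraries for 1056 genes (6.42%) and wholly below for 860 genes (5.23%). The precision was limited, since the median standard error was 0.59 on the log2 scale, and the 95% interval lay within a change of 2-fold in either direction, between -1 and 1, for 2923 genes (17.8%). For the other genes the interval reached or passed at least 1 of these bounds, and that of Rbck1 (-5.12 to -3.28) lay wholly outside them. Tests that shrink or share the spread in other ways called more genes, with 14 higher (0.0851%) and 48 lower (0.292%) by edgeR's likelihood ratio test, 6 (0.0365%) and 29 (0.176%) by its exactTest, and 28 (0.17%) and 108 (0.656%) by DESeq2. Of these, 35 genes, 29 of them lower, passed in at least 3 of 4 alternatives, the fourth being the 6 ΔIEC libraries alone, which called 0 genes (1077 at an unadjusted p under 0.05). The genes described next are the 12 higher and the 12 lower genes with the smallest p among those with a mean of at least 5 CPM and libraries that do not overlap. Except for Rbck1, their adjusted p lay between 0.472 and 0.603 (edgeR's quasi-likelihood test), so their values are descriptions of these 6 libraries.

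**Figure D3:**
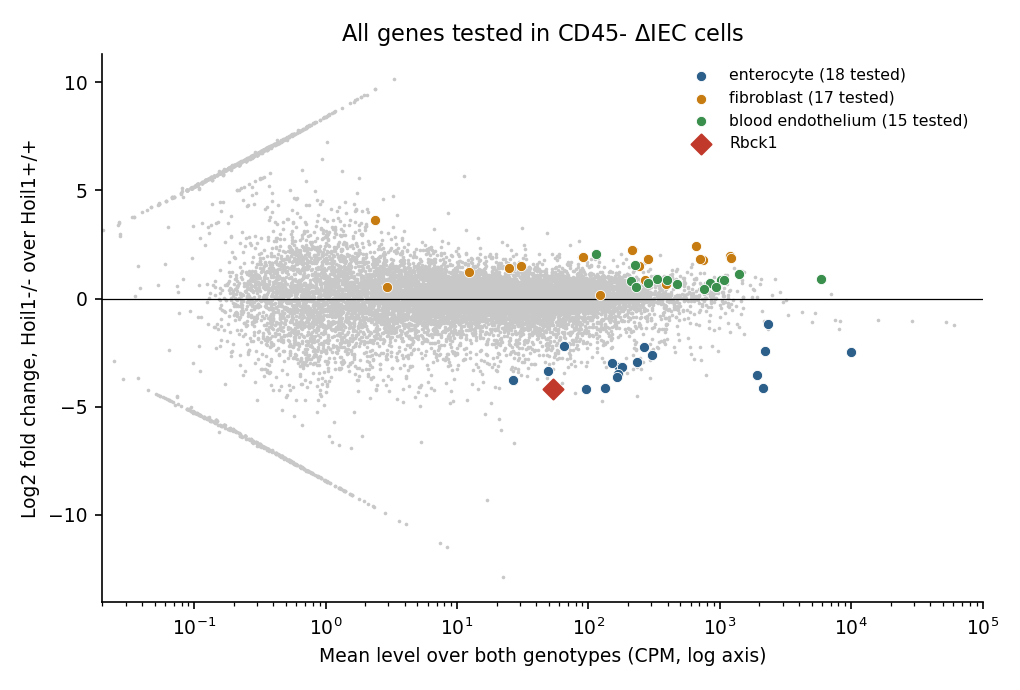
Log2 fold change of Hoil1-/- over Hoil1+/+ CD45- ΔIEC cells (vertical axis) against the mean level (CPM, log axis) for the genes tested that had a count in these libraries, with enterocyte, blood endothelial and fibroblast markers colored. Rbck1 (-4.20) stands among enterocyte markers of a similar fold change, all 18 enterocyte markers lie below 0 and all 17 fibroblast markers above it, and the diagonal rims are genes with no count in one group, whose fitted fold change depends on the prior count.

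The lower genes included enzymes that act on drugs and lipids. Cyp2c55 (chromosome 19 from 39007019 to 39042693, plus strand), a cytochrome P450 that oxidizes fatty acids and drugs, was at 0.37, 1.01 and 0.99 CPM in libraries 3, 4 and 5 and at 17.5, 45.3 and 32.3 CPM in libraries 9, 10 and 11. Its level in library 11 lay between those in the epithelium-rich libraries 9 and 10. The log2 fold change was -5.35 (SE 0.86) and -4.75 with the epithelial against endothelial level as a covariate. Cyp3a25, another cytochrome P450, had 2 counts in all in the Hoil1-/- libraries and was at 27.7, 59.7 and 13.2 CPM in the Hoil1+/+ libraries, a pooled ratio of 451 (95% counting interval 125 to 3728). Pm20d1, an enzyme that makes and breaks down N-acyl amino acids, was at 3.37, 1.69 and 0.82 CPM against 30.9, 44.7 and 12.3 CPM. Gstm3, a glutathione S-transferase, was at 5.47, 1.85 and 5.42 CPM against 45.0, 37.0 and 19.6 CPM. For each of these 4 enzymes the lowest Hoil1+/+ library was above the highest Hoil1-/- library, because genes were chosen for this. Members of the Cyp and Gstm families are similar in sequence, and it is not stated how reads shared between them were counted.

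The other lower genes had various roles. Enpep (chromosome 3 from 129269175 to 129332720, minus strand), the membrane aminopeptidase A, was at 39.0, 29.9 and 55.0 CPM in libraries 3, 4 and 5 and at 483, 550 and 155 CPM in libraries 9, 10 and 11. Its log2 fold change was -3.26 (SE 0.56). Sis (chromosome 3 from 72888557 to 72967863, minus strand), sucrase-isomaltase of the enterocyte brush border, was at 36.8, 13.5 and 54.4 CPM against 420, 349 and 154 CPM. Reg3a, a secreted C-type lectin, was at 2.10, 0.65 and 4.44 CPM against 47.8, 62.5 and 8.65 CPM. These 3 genes were highest in libraries 9 and 10, the libraries rich in epithelial transcripts, and library 11 lay between them and the Hoil1-/- libraries. Abhd3, a phospholipase, was at 2.26, 1.94 and 4.11 CPM against 25.5, 22.6 and 10.3 CPM, and Adtrp, a fatty acid ester hydrolase, at 5.94, 3.35 and 5.42 CPM against 44.4, 40.8 and 13.1 CPM. Mpp1, a membrane scaffold protein, was at 17.7, 19.2 and 23.3 CPM against 151, 183 and 37.4 CPM. Without library 11, Mpp1 was called beside Rbck1 (log2 fold change -3.06, adjusted p = 0.0485, edgeR's quasi-likelihood test). That fit left libraries 9 and 10 as the Hoil1+/+ group, both high in Xist and rich in epithelial transcripts. Mpp1 lies on the X chromosome. With library 11 kept, its log2 fold change was -2.626. It was -1.997 with sex as a covariate (adjusted p = 0.964, edgeR's quasi-likelihood test). The part of sex in the call of Mpp1 was not tested. Pax8, a paired box transcription factor, had no count in libraries 3, 4 and 5 and was at 5.71, 16.4 and 2.23 CPM in libraries 9, 10 and 11, which makes it at least 16.5-fold lower when the Hoil1-/- mean is set at 3 counts in the shallowest of those libraries. With the epithelial against endothelial level as a covariate, the log2 fold changes were -2.15 for Enpep, -2.27 for Sis, -2.48 for Reg3a and -1.64 for Mpp1, all smaller in size than without it. The part of epithelial content in these differences was not tested.

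The higher gene with the smallest p was Ifi27l2a. Ifi27l2a (chromosome 12 from 103442167 to 103443680, minus strand), which is induced by type I interferon, was at 47.0, 60.8 and 62.4 CPM in libraries 3, 4 and 5 and at 5.60, 4.40 and 7.58 CPM in libraries 9, 10 and 11. The levels within each group were close, the means differed 9.68-fold, and the log2 fold change was 3.26 (SE 0.67) and 2.71 with the epithelial against endothelial level as a covariate. In f/f mice the log2 fold change of Ifi27l2a was 0.54, and the difference between the 2 effects did not pass (adjusted p = 0.176, edgeR's quasi-likelihood test). Ms4a6b, a membrane protein of the MS4A family known from lymphoid and myeloid cells, was at 13.3, 11.2 and 11.8 CPM against 0.78, 1.47 and 1.61 CPM, although Ptprc was at 2.16, 0.44 and 0.49 CPM in the same Hoil1-/- libraries.

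Postn (chromosome 3 from 54361109 to 54391037, plus strand), the matrix protein periostin, was at 135, 211 and 96.3 CPM in libraries 3, 4 and 5 and at 36, 12.6 and 21.8 CPM in libraries 9, 10 and 11. Its log2 fold change was 2.65 (SE 0.59) and 2.01 with the covariate. Mfap5, a protein of elastic microfibrils, was at 42.3, 47.3 and 31.9 CPM against 8.06, 2.49 and 11 CPM. C1qtnf7, a secreted protein with a C1q domain, was at 8.15, 14.4 and 11.2 CPM against 1.90, 2.93 and 2.44 CPM. These secreted proteins are known from fibroblasts and other stromal cells, whose summed markers were also higher in the Hoil1-/- libraries.

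The other genes of the 12 were of diverse roles and smaller differences. H2-Q7, a nonclassical MHC class I gene of a family of similar sequences, was at 282, 267 and 186 CPM against 63.2, 66.0 and 125 CPM. Parp3, a poly(ADP-ribose) polymerase of DNA repair, was at 32.5, 30.7 and 32.2 CPM against 6.6, 13.2 and 12.1 CPM. Dynll1, a dynein light chain, was at 171, 189 and 316 CPM against 79.6, 112 and 104 CPM. Each of these had no overlap between the groups by the way it was chosen. Bace2, a protease, had a log2 fold change of 1.15 (SE 0.28), Wfs1, an endoplasmic reticulum protein, one of 1.12 (SE 0.27), Borcs8, a subunit of the BORC complex of lysosomes, one of 1.46 (SE 0.38) and Tmem189 one of 1.74 (SE 0.47). Inhba, the βA subunit of activins and inhibins and one of the 35 genes above, was at 3.10, 8.31 and 2.96 CPM in libraries 3, 4 and 5 and had no count in libraries 9, 10 and 11, at least 10.9-fold higher against 3 counts in the shallowest of those libraries.

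**Figure D4:**
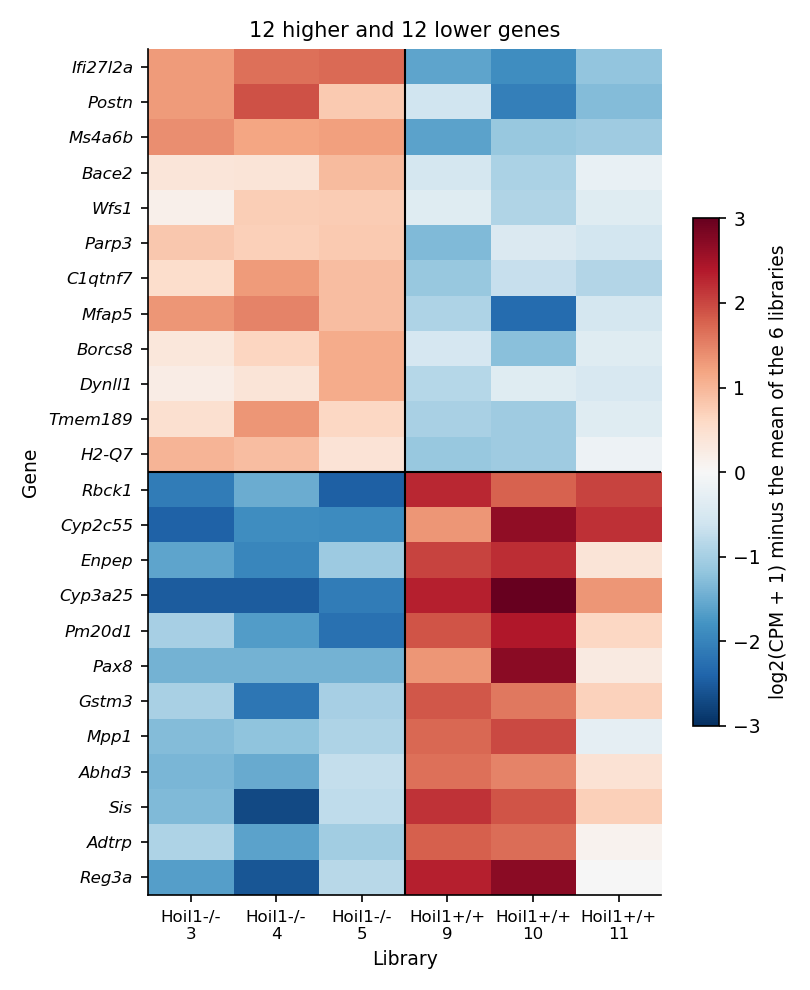
Level of the 12 higher and 12 lower genes in the 6 libraries, as log2(CPM + 1) minus the mean of the 6 libraries for each gene. Except for Rbck1 and Cyp2c55, the lower genes are highest in libraries 9 and 10 and nearer the middle in library 11. The groups do not overlap because genes were chosen for this.

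Enterocyte markers had the median farthest from 0 of the lists examined. Of the 18 enterocyte markers tested, 14 were lower at an unadjusted p under 0.05 (828 of 16453 genes, 5.03%, among all genes in this direction). The groups did not overlap for 7 (5.23% of all genes in this direction). All 18 had a log2 fold change below 0, and 0 passed the adjusted threshold. Their median log2 fold change was -3.15, against 0.06 over all genes tested. The summed level was 1416, 603 and 16526 CPM in libraries 3, 4 and 5 and 48252, 53164 and 2917 CPM in libraries 9, 10 and 11, so the groups overlapped, with Hoil1-/- library 5 above Hoil1+/+ library 11. With the epithelial against endothelial level as a covariate the median was -1.18. Leaving out each library in turn moved the number of markers with an unadjusted p under 0.05 between 8 (without library 4) and 17 (without library 5), and it was 9 without library 3. It was 4 with sex as a covariate, and the sexes were uneven between the groups.

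Single enterocyte genes did not all follow the summed level. Apoa1, the apolipoprotein of high density lipoproteins and the most abundant marker, was at 493, 109 and 8617 CPM in libraries 3, 4 and 5 and at 23105, 26803 and 450 CPM in libraries 9, 10 and 11. Library 5 was thus far above library 11 for Apoa1. Anpep (aminopeptidase N) was at 226, 135 and 557 CPM against 4698, 5088 and 732 CPM, and Mep1a (a subunit of the metalloprotease meprin) at 9.62, 10.6 and 23.3 CPM against 219, 435 and 105 CPM. For these 2 peptidases library 5 was below library 11.

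Bile acid uptake is a function of the distal ileum. Slc10a2, the apical sodium-dependent bile acid transporter, was at 3.26, 5.44 and 1.97 CPM in libraries 3, 4 and 5 and at 49.8, 61.5 and 37.4 CPM in libraries 9, 10 and 11, with a log2 fold change of -3.76 (SE 1.05; edgeR adjusted p = 0.603) and of -3.19 with the covariate. Fabp6, the bile acid binding protein of ileal enterocytes, was at 283, 177 and 219 CPM against 2785, 8554 and 697 CPM. Slc51b, a subunit of the basolateral bile acid exporter, was at 4.42, 4.23 and 15.3 CPM against 148, 185 and 21.2 CPM. In all 3 genes the Hoil1-/- libraries lay below the Hoil1+/+ libraries, and the part of epithelial content was not tested. Fgf15, the hormone by which ileal enterocytes limit hepatic bile acid synthesis, was at 0, 1.29 and 0 CPM against 38.1, 120 and 3.89 CPM. Fabp6 and Fgf15 were picked from their list after their values were seen. Of the 27 genes of lipid absorption and bile acid handling, 16 were lower and 0 higher at an unadjusted p under 0.05. Over all genes tested these shares were 5.03% and 2.63%. Without overlap, 5 lay wholly below (5.23% of all genes tested). The median log2 fold change was -2.40, and -0.52 with the covariate. The count of 16 became 2 with sex, 6 with the epithelial against endothelial level and 10 with age as a covariate, 7 without library 4 or 10, 8 without library 3 and 9 without library 9. Some lipid absorption genes overlapped, such as Mttp, which loads lipid onto apolipoprotein B, at 49.6, 21.4 and 94.5 CPM against 722, 455 and 69.2 CPM, and Mogat2, an acyltransferase of triglyceride synthesis, at 19.8, 8.55 and 39.4 CPM against 242, 241 and 30.4 CPM. For both, library 11 fell inside the range of the Hoil1-/- libraries.

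Of the 28 genes of xenobiotic metabolism, 10 were lower and 1 was higher at an unadjusted p under 0.05. Over all genes tested these shares were 5.03% and 2.63%. Without overlap, 10 lay wholly below and 2 wholly above, against 5.23% and 6.42% of all genes tested. The median log2 fold change was -1.90, and -0.54 with the covariate. The count of 10 lower genes became 5 with sex or with the epithelial against endothelial level as a covariate, 6 without library 4 and 17 without library 5. Abcg2, an efflux pump, was at 38.3, 42.3 and 49.9 CPM against 108, 101 and 58.8 CPM. Aldh1a1, a retinaldehyde dehydrogenase, was at 15.7, 16.7 and 9.20 CPM against 58.7, 52.5 and 28.4 CPM. The one higher gene was Gstm1, a glutathione S-transferase, at 150, 200 and 126 CPM against 57.7, 79.8 and 103 CPM. Nr1i2, the nuclear receptor PXR that induces many of these enzymes, was at 10.0, 8.43 and 16.6 CPM against 44.7, 65.6 and 23 CPM, and Ahr, the aryl hydrocarbon receptor, at 44.2, 54.7 and 46.3 CPM against 11.3, 22.9 and 42.3 CPM. PXR was thus low and Ahr high in the Hoil1-/- libraries, with libraries 9 and 10 farthest from them in both. Gstm1, Nr1i2, Ahr and Aldh1a1 were picked from their list after their values were seen.

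Pan-epithelial markers had a median nearer 0. All 10 had a log2 fold change below 0, with a median of -1.18, and 3 had an unadjusted p under 0.05 (5.03% of all genes in this direction). Epcam, the epithelial adhesion molecule, was at 396, 177 and 673 CPM in libraries 3, 4 and 5 and at 1378, 1057 and 504 CPM in libraries 9, 10 and 11. Cdh1, E-cadherin, was at 251, 140 and 344 CPM against 615, 431 and 376 CPM, the only one of the 10 without overlap (5.23% of all genes in this direction). With the epithelial against endothelial level as a covariate their median was -0.02, as this level is made from these markers. The 13 transcripts of the mitochondrial genome had a median log2 fold change of -1.03, and of -0.16 with the covariate. All of them lay below 0 without it, and 2 had an unadjusted p under 0.05 (5.03% of all genes in this direction).

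Markers of secretory lineages had medians nearer 0 than enterocyte markers. The 12 goblet cell markers had a median log2 fold change of -0.22, with 5 above and 7 below 0. Of these, 1 was higher at an unadjusted p under 0.05 (2.63% of all genes in this direction). Muc2, the main secreted mucin, picked after its values were seen, was at 1203, 372 and 2271 CPM in libraries 3, 4 and 5 and at 2358, 2095 and 679 CPM in libraries 9, 10 and 11. Agr2, which folds mucins, was at 645, 185 and 2442 CPM against 805, 875 and 361 CPM. Both overlapped widely, with the highest level of Agr2 in Hoil1-/- library 5. With the epithelial against endothelial level as a covariate, 9 of the 12 had an unadjusted p under 0.05 (4.25% of all genes tested). The median was then 1.21, and the number past the adjusted threshold stayed at 0 for this list. Relative to the summed pan-epithelial level, the summed goblet level was 2.52, 1.67 and 3.52 in libraries 3, 4 and 5 and 1.63, 1.94 and 1.59 in libraries 9, 10 and 11, and the groups overlapped. Retnlb, a goblet cell protein induced by IL-4 and IL-13, was at 2.31, 0 and 1.64 CPM and had no count in libraries 9, 10 and 11.

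Of the 16 tuft cell markers tested, 9 had a log2 fold change above and 6 below 0 (the last one had no count in these 6 libraries), with a median of 0.15. At an unadjusted p under 0.05, 1 was higher (2.63% of all genes in this direction). This was Ptgs1, cyclooxygenase 1, which other cells also express, at 87.6, 125 and 110 CPM against 31.0, 21 and 79.7 CPM. Dclk1, the kinase by which tuft cells are commonly stained, was at 18.1, 8.87 and 18.7 CPM against 5.04, 13.3 and 10.4 CPM and overlapped. Pou2f3, the transcription factor that specifies tuft cells, was at 4.89, 0.60 and 3.12 CPM against 2.02, 0.15 and 3.6 CPM. The levels of Dclk1 and Pou2f3 thus did not separate the groups, and Pou2f3 was picked after its values were seen. Paneth cell markers had a median of -1.29 over the 11 tested, 0 at an unadjusted p under 0.05, and Lyz1 (lysozyme) was at 83.7, 104 and 1451 CPM against 1064, 1102 and 2059 CPM, while the α-defensin genes of this list are near-identical copies whose counts are uncertain. The 14 enteroendocrine markers had a median of -0.43 and the 15 cycling cell markers one of -0.19, each with 0 at an unadjusted p under 0.05. Of the 10 stem cell markers, 2 were lower at an unadjusted p under 0.05 (5.03% of all genes in this direction). These were Axin2 and Rnf43, both targets and feedback inhibitors of Wnt signaling. Axin2 was at 43.0, 46.6 and 29.4 CPM in libraries 3, 4 and 5 and at 49.7, 118 and 89.7 CPM in libraries 9, 10 and 11, whereas Lgr5, a receptor that marks stem cells, was at 12.8, 9.07 and 14.6 CPM against 4.59, 11.3 and 42.5 CPM.

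Fibroblast transcripts were higher in the Hoil1-/- libraries. The summed level of 18 fibroblast markers was 10618, 13419 and 4670 CPM in libraries 3, 4 and 5 and 2560, 1486 and 4549 CPM in libraries 9, 10 and 11, so the groups did not overlap, by a narrow margin between libraries 5 and 11, and did overlap when CPM were taken by total counts. Of the 17 markers tested, 6 were higher at an unadjusted p under 0.05 (433 of 16453 genes, 2.63%, among all genes in this direction). The groups did not overlap for 8 (6.42% of all genes in this direction). All 17 had a log2 fold change above 0, and the median was 1.81. C3, a complement component made by fibroblasts among other cells, was at 1270, 1266 and 802 CPM against 140, 55.2 and 415 CPM. Dpt, the matrix protein dermatopontin, was at 372, 437 and 249 CPM against 46, 40.8 and 133 CPM. Col3a1, the most abundant of the list and a chain of fibrillar collagen, was at 2149, 2897 and 718 CPM against 560, 282 and 750 CPM and overlapped. With the epithelial against endothelial level as a covariate the median was 0.31 and 1 marker had an unadjusted p under 0.05. The count of 6 became 13 with age as a covariate, 0 without library 9 or 10, 1 without library 3 or 4 and 11 without library 11. Relative to the summed blood endothelial level, the summed fibroblast level was 0.519, 0.563 and 0.453 in libraries 3, 4 and 5 and 0.408, 0.241 and 0.256 in libraries 9, 10 and 11, which did not overlap.

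Blood endothelial markers had a median log2 fold change of 0.85 over 15 genes, and of -0.05 with the covariate that is made from them. All 15 lay above 0 without it, and 2 had an unadjusted p under 0.05 (2.63% of all genes in this direction). Ackr1, the chemokine receptor of venules, was the one that did not overlap (6.42% of all genes in this direction), at 92.7, 90.6 and 373 CPM against 24.4, 22.7 and 83.0 CPM. Lymphatic endothelial markers had a median of 0.68 over 8 genes (0.19 with the covariate), with 0 at an unadjusted p under 0.05. Smooth muscle and pericyte markers had a median of 0.69 over 13 genes, 0.13 with the covariate and -1.77 in f/f mice. Tagln (transgelin) was at 519, 882 and 958 CPM against 272, 319 and 408 CPM, and Acta2 (smooth muscle actin) at 913, 1790 and 1770 CPM against 587, 671 and 822 CPM. For both genes every Hoil1-/- library was above every Hoil1+/+ library. The medians were 0.43 over 9 enteric glia genes and 0.70 over 10 enteric neuron genes (0.59 with a gene that had no count in one group set at its bound). With the covariate the medians were -0.29 for glia and 0.68 for neuron genes. The summed levels of smooth muscle and enteric neuron markers were without overlap and higher, and that of glia markers without overlap and lower, the last resting on Erbb3, a receptor also present in epithelium, at 84.3, 37.7 and 75.4 CPM against 259, 302 and 140 CPM. Thus 4 of 21 cell type lists had summed levels without overlap, and 3 did when CPM were taken by total counts. The exact permutation test of 3 against 3 libraries, with 20 splits, cannot go below p = 0.10, the value of these lists. Among the 17 tested genes of the stromal Wnt and BMP niche, which keeps crypts in place, 14 had a log2 fold change above 0 with a median of 0.98, and 0 had an unadjusted p under 0.05. With the covariate the median of this list was 0.05, and in f/f mice it was -0.92. Bmp4, a signal of villus differentiation, was at 35.1, 52.9 and 25.5 CPM against 7.61, 12.8 and 24.8 CPM, and Rspo3, which amplifies Wnt signals at the crypt base, at 5.05, 6.05 and 2.30 CPM against 0, 0 and 0.94 CPM.

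Transcripts of leukocytes were few, apart from those of plasma cells. The summed level of 10 pan-hematopoietic markers was 95.7, 86.4 and 70.2 CPM in libraries 3, 4 and 5 and 78.3, 82.4 and 75.0 CPM in libraries 9, 10 and 11. Igha, the IgA heavy chain of plasma cells, was at 641, 181 and 261 CPM against 1285, 791 and 30.5 CPM. Erythrocyte transcripts were present in every library, with Hbb-bs, a β-globin gene, at 2474, 1940 and 4101 CPM against 2540, 3439 and 3589 CPM. The lists of T cells, B and plasma cells, myeloid cells, mast cells and eosinophils, ILC2 and erythrocytes had 0 members with an unadjusted p under 0.05 and medians of -0.75, -1.13, -0.93, -0.71, 0.08 and -0.20. Klrg1, Il5 and Il13 of the ILC2 list had no count in any of the 6 libraries, where 3 counts correspond to 0.040 to 0.493 CPM.

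**Figure D5:**
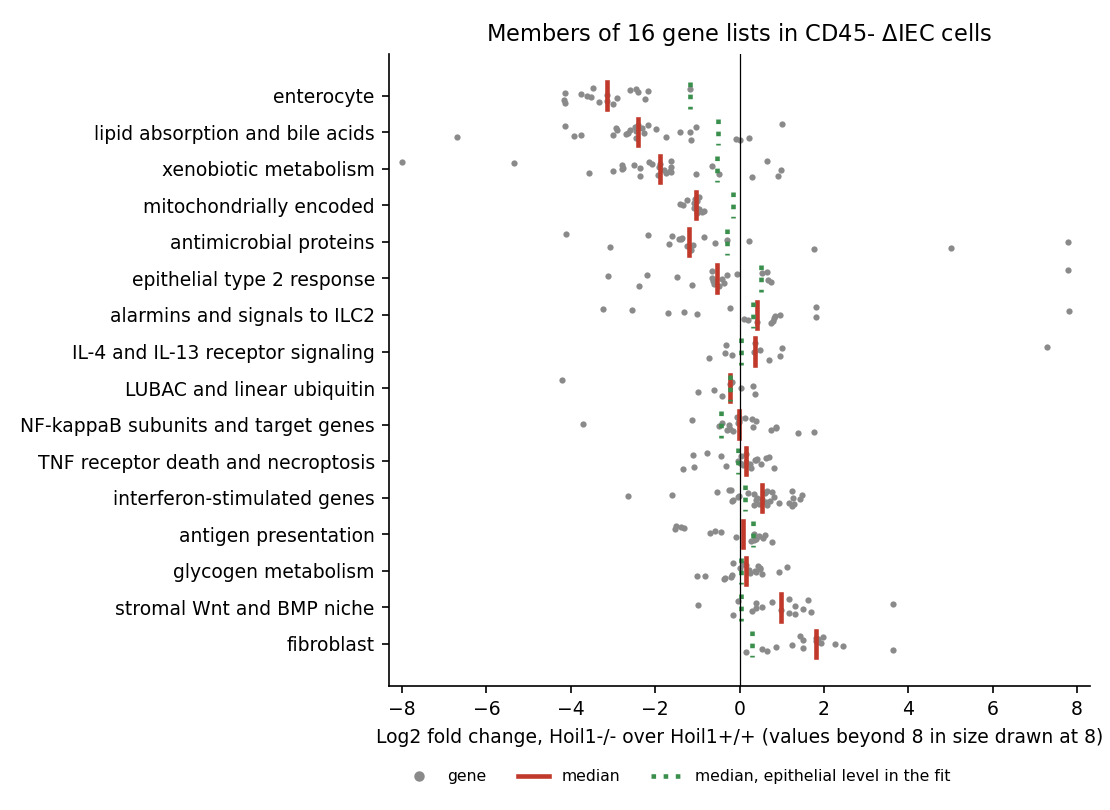
Log2 fold change of each tested member of 16 gene lists (points), with the median (solid red line) and the median with the epithelial against endothelial level in the fit (dotted green line). The median of enterocyte genes moves from -3.15 to -1.18 with that term and that of fibroblast genes from 1.81 to 0.31, and the medians of LUBAC genes are -0.24 and -0.22.

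Signals to ILC2 were examined because IECs of these mice cannot respond to IL-4 and IL-13. Il25 had no count in any of the 6 libraries. Il33, an alarmin of stromal and endothelial cells, was at 26.6, 36.3 and 45.3 CPM in Hoil1-/- libraries 3, 4 and 5 and at 8.62, 5.43 and 16.2 CPM in Hoil1+/+ libraries 9, 10 and 11. Every Hoil1-/- library was above every Hoil1+/+ library, the means differed 3.57-fold, and the log2 fold change was 1.82 (SE 0.56; edgeR adjusted p = 0.603) and 1.49 with the covariate. Summed fibroblast markers were higher in the same libraries, and their part in the level of Il33 was not tested. Il18, a cytokine of epithelial cells, was at 1.31, 0.52 and 1.64 CPM against 10.5, 18.2 and 3.63 CPM, with a log2 fold change of -3.23 (SE 0.89) and of -2.54 with the covariate. Tslp was at 1.58, 1.01 and 0.49 CPM against 1.01, 2.05 and 0.62 CPM, near the level of a few counts in the shallower libraries. Of the 17 genes of this list that were tested, 2 were higher (Il33 and Calcb) and 1 was lower (Il18) at an unadjusted p under 0.05. Among all genes tested, 2.63% were higher and 5.03% lower at this p. Calcb, one of the calcitonin gene-related peptides, had no count in the Hoil1+/+ libraries and was at 0, 1.17 and 2.79 CPM in the Hoil1-/- libraries. The median of the list was 0.41.

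Among 11 receptors and mediators of IL-4 and IL-13, 1 was higher at an unadjusted p under 0.05 (2.63% of all genes in this direction). Il4ra was at 146, 99.9 and 74.1 CPM in libraries 3, 4 and 5 and at 51.3, 61.0 and 135 CPM in libraries 9, 10 and 11, with a log2 fold change of 0.37 (SE 0.46; edgeR adjusted p = 0.876). These counts come from all CD45- cells and from the whole gene and cannot serve as a check of the IEC deletion, and the direction turned to -0.26 with the epithelial against endothelial level as a covariate. Il2rg, the common cytokine receptor γ chain, was at 35.3, 42.5 and 43.0 CPM against 15.6, 20.8 and 23.7 CPM and was that gene. Stat6, the transcription factor downstream of the receptor, was at 119, 133 and 94.5 CPM against 142, 120 and 131 CPM, with an interval of the log2 fold change from -0.70 to 0.34. Of the 20 genes tested in the list of epithelial responses to type 2 cytokines, 1 was higher at an unadjusted p under 0.05 (Retnlb, above). This share was 2.63% over all genes tested. The median of the list was -0.54, and 0.51 with the covariate.

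The partners of HOIL1 were measured beside it, with values given for all of them whatever their p. Rnf31 was at 70.3, 73.1 and 41.1 CPM in libraries 3, 4 and 5 and at 71.9, 83.9 and 54.8 CPM in libraries 9, 10 and 11, with a log2 fold change of -0.19 (95% interval -0.92 to 0.54). Sharpin was at 29.9, 28.1 and 25.6 CPM against 34.3, 44.4 and 20.3 CPM, a log2 fold change of -0.24 (95% interval -1.04 to 0.56). Among the deubiquitinases of linear chains and their adaptor, Otulin had a log2 fold change of 0.33 (95% interval -0.90 to 1.56), Cyld one of 0.03 (95% interval -0.66 to 0.71) and Spata2 one of -0.60 (95% interval -1.33 to 0.13). The lower bounds of these 5 intervals all lie above the fold change of Rbck1. Tnip1, a linear ubiquitin binding inhibitor of NF-κB, was the other gene of the 9 with an unadjusted p under 0.05, at 59.5, 41.5 and 55.2 CPM against 150, 105 and 53.0 CPM. Rbck1 and Tnip1 were both lower, a direction that 5.03% of all genes tested took at this p.

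The median log2 fold change of 22 NF-κB subunits and target genes tested was -0.02. Of these, 1 gene was lower at an unadjusted p under 0.05 (5.03% of all genes in this direction). It was Relb, a subunit of the noncanonical pathway, at 51.1, 42.5 and 51.6 CPM against 120, 134 and 63.1 CPM, without overlap. Cxcl10, a chemokine also induced by interferon, was at 48.9, 72.3 and 5.26 CPM against 9.29, 15.7 and 23.1 CPM. Of 21 genes of TNF receptor death and necroptosis, 14 had a log2 fold change above and 7 below 0, with a median of 0.14, and 0 were higher at an unadjusted p under 0.05. Casp8, the initiator caspase of death receptor signaling, was at 52.8, 53.1 and 84.3 CPM against 118, 85.2 and 57.2 CPM, and Ripk3, the kinase of necroptosis, at 29.4, 23.2 and 25.1 CPM against 28.4, 12 and 18.2 CPM. Both overlapped between the groups and were picked after their values were seen.

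Of 31 interferon-stimulated genes, 22 had a log2 fold change above 0, and the median was 0.53 (-0.51 in f/f mice). At an unadjusted p under 0.05, 5 were higher and 0 lower, against 2.63% and 5.03% of all genes tested. Without overlap, 8 lay wholly above and 0 wholly below, against 6.42% and 5.23% of all genes tested. Iigp1, an immunity-related GTPase, was at 215, 240 and 152 CPM in libraries 3, 4 and 5 and at 63.7, 41.5 and 152 CPM in libraries 9, 10 and 11. Irf9, a subunit of the transcription factor ISGF3, was at 80.3, 76.2 and 71.6 CPM against 47.5, 49.7 and 49.9 CPM. Ifit3, an antiviral protein, was at 54.3, 42.9 and 41.9 CPM against 23.5, 8.51 and 26.9 CPM. The 3 levels of Irf9 were close within each group, whereas Iigp1 of library 11 lay at the edge of the Hoil1-/- libraries. With the epithelial against endothelial level as a covariate the median was 0.13 and 0 of the 31 had an unadjusted p under 0.05. The count of 5 became 0 without library 3 or 10, 1 without library 4, 3 without library 9 and 10 without library 11. Of 16 antigen presentation genes, 0 had an unadjusted p under 0.05 and the median was 0.09. Cd74, the invariant chain that accompanies class II molecules, was highest in libraries 9 and 10, at 660, 310 and 870 CPM against 2457, 2641 and 183 CPM, whereas the class I gene H2-D1 was at 2140, 2128 and 1846 CPM against 1489, 1113 and 1406 CPM.

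Of the 18 antimicrobial genes tested, 4 were lower and 1 higher at an unadjusted p under 0.05, against 5.03% and 2.63% of all genes. The median was -1.21. Reg3b, a lectin of enterocytes, was at 413, 159 and 373 CPM against 2084, 1937 and 237 CPM, so library 11 lay within the Hoil1-/- range. Nos2, inducible nitric oxide synthase, was at 46.5, 37.6 and 19.1 CPM against 145, 158 and 29.7 CPM. Of 23 immediate-early and heat-shock genes, which respond to handling of tissue, 0 had an unadjusted p under 0.05 and the median was -0.02. Of 18 circadian clock genes, 1 was lower at an unadjusted p under 0.05 (5.03% of all genes in this direction). This was Npas2, at 16.5, 10.3 and 27.9 CPM against 47.4, 59.1 and 24.9 CPM, and the median of the list was -0.29. Of 21 genes of glycogen metabolism, examined because human HOIL1 deficiency causes glycogen-like deposits in muscle, 0 had an unadjusted p under 0.05 and the median was 0.15.

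The chromosome around Rbck1 was also examined, since DNA flanking a targeted allele is inherited with it. Of 131 genes tested within 5 Mb of Rbck1, 5 were higher and 5 lower at an unadjusted p under 0.05, Rbck1 included. Over all genes tested these shares were 2.63% and 5.03%, and 7.66% together. Of the 131, 1, Rbck1, passed the adjusted threshold. The median log2 fold change of these 131 genes was 0.06, the same at this precision as over all genes tested. Within 2 Mb, 3 of 58 genes were higher and 5 lower at an unadjusted p under 0.05, with a median of 0.23. Of these 58, 4 lay wholly above and 6 wholly below, against 6.42% and 5.23% of all genes tested. Within 10 Mb, 6 of 186 were higher and 6 lower at an unadjusted p under 0.05, with a median of 0.03. The next genes by p within 5 Mb were Pdrg1 (log2 fold change 1.15) and Snph (log2 fold change -1.74).

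Finally, the effect of Hoil1 in ΔIEC mice was set beside that in f/f mice, which share no library with them. No gene had an interaction with an adjusted p under 0.05 (0 of 16453, edgeR's quasi-likelihood test), 3409 (20.7%) had an unadjusted p under 0.05, and the likelihood ratio test called 1223. The epithelial against endothelial level, on the log2 scale, was -1.46, -2.81 and 0.71 in Hoil1-/-Il4raΔIEC and 2.18, 2.11 and -0.98 in Hoil1+/+Il4raΔIEC libraries, but 3.02 and 1.91 in Hoil1-/-Il4raf/f and 1.69, -1.86 and -0.65 in Hoil1+/+Il4raf/f libraries. The higher level was thus in Hoil1-/- cells of f/f mice and mostly in Hoil1+/+ cells of ΔIEC mice. Of the 860 genes lying wholly lower in Hoil1-/- cells of ΔIEC mice, 280 (32.6% of these and 11.3% of the 2474 higher in f/f mice) lay wholly higher in Hoil1-/- cells of f/f mice, and 52 (6.05%) lay wholly lower. Over all genes tested these shares in f/f mice, where 2 Hoil1-/- libraries were compared, were 15% higher and 19.3% lower. Of the 1056 wholly higher, 308 (29.2%) lay wholly lower in f/f mice and 35 (3.31%) wholly higher. Enterocyte markers had a median log2 fold change of -3.15 in ΔIEC and 2.37 in f/f mice, and fibroblast markers 1.81 and -0.92. The part of epithelial content in these opposite directions was not tested. In CD45+ cells of ΔIEC mice, 0 of 17029 genes were called and 1035 (6.08%) had an unadjusted p under 0.05.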

How the data were processed

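CD45- cells sorted from ileum, a mixture of epithelial and lamina propria cells without Peyer's patches, were sequenced after poly-A selection and 16 cycles of PCR. Per the study's methods, the authors used cutadapt for trimming, STAR for alignment to mm10 and featureCounts with an ENSEMBL annotation, and they deposited raw counts for 39056 genes in 24 libraries. The counting options, strand included, are not given in the sources used here. The authors' comparison set left out 3 libraries after a principal component analysis, 1 of them (library 23, Hoil1-/-Il4raf/f) in the CD45- fraction, so 11 CD45- libraries entered the fit here.

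Genes were kept by filterByExpr (minimum count 10, minimum total 15). Group means were fitted with TMM scaling by edgeR's quasi-likelihood test (edgeR 4.0.16, R 4.3.3), two-sided. Adjusted p-values are Benjamini-Hochberg values over all genes tested, called under 0.05. DESeq2 1.42.0, the likelihood ratio test, exactTest, other scalings and filters, covariates for age, sex and epithelial against endothelial level, and leaving out each library were alternatives. The code was tested on simulated data. The covariate is the mean log2 level of pan-epithelial minus that of blood endothelial markers, estimated from the same libraries. Depth was 6028300 to 68345000 counts, and 3 counts correspond to 0.040 to 0.493 CPM. Intervals of pooled ratios cover counting error only.

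Named genes were Rbck1 and Il4ra, genes past the threshold, genes called by at least 3 of 4 alternatives, the 12 higher and 12 lower genes of smallest p without overlap and with a mean of at least 5 CPM, and up to 4 members of each list. Predicted genes are counted but not described. The groups, gene lists and tests were chosen with earlier results of these data known. Gene positions are from GENCODE M21 (GRCm38), which matched 34299 gene identifiers by version and 4573 without it, and left 184 unmatched. Some items are not reported here.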

Additional observations from a re-analysis of the deposited data

How the results depend on the processing

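The number of genes called, 1, became 62 with the likelihood ratio test, 35 with exactTest, 136 with DESeq2, and 0 with all 12 CD45- libraries or with the 6 ΔIEC libraries alone (913 and 1077 genes at an unadjusted p under 0.05). Leaving out each library gave 0 to 2 calls, with 0 without library 3, 5 or 9 (779, 1805 and 705 genes at an unadjusted p under 0.05) and 2 without library 11. Other scaling, filters, removal of immunoglobulin genes and covariates for age, sex or epithelial against endothelial level kept 1 call, Rbck1. The log2 fold change of Rbck1 was -4.20 with all 12 libraries and with the 6 alone, where it no longer passed, and -4.57 to -3.99 when each library was left out, passing in 3 of 6 cases. The interaction with the f/f genotype went from 0 calls to 1223 by the likelihood ratio test, CD45+ cells went from 0 to 1 call with all 12 CD45+ libraries, and calls within the lists went from 1 to 0 with all 12 CD45- libraries. The log2 fold change of Il4ra turned from 0.37 to -0.26 with the epithelial covariate. The single genes followed include those named for passing in at least 3 of 4 alternatives, which largely fixed the number that newly passed. Among the values of single genes under the alternatives, 690 kept direction and side of the threshold, 112 passed it where they had not, 5 no longer did and 1 turned. The cause was not tested. Counts of list members without each library were chosen after seeing the data. No paired analysis was run, because the library numbers run through the series and cannot pair mice across groups. The study used co-housed littermates as controls, but the sample labels used here do not give litters. With 3 libraries a group, uneven epithelial content and sex, and a median standard error of 0.59 on the log2 scale, the interval lay within 2-fold for 17.8% of genes.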

Other observations

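Other lower genes among the 35 named by several tests included a receptor, a protease and a transcription factor. Cubn, the cobalamin and intrinsic factor receptor of the ileum, was at 2.21, 7.74 and 17.7 CPM in Hoil1-/- libraries 3, 4 and 5 and at 185, 441 and 102 CPM in Hoil1+/+ libraries 9, 10 and 11, so the groups were far apart in every library. Mep1b, a subunit of meprin, was at 29.2, 18.5 and 82.2 CPM against 718, 804 and 98.0 CPM, with library 11 close to library 5. Maf, a transcription factor, was at 34, 22.8 and 42.9 CPM against 374, 655 and 45.8 CPM, again with library 11 close to the Hoil1-/- libraries. These genes were called by the likelihood ratio test, exactTest and DESeq2, run on the same counts, and not by edgeR's quasi-likelihood test. With the epithelial against endothelial level as a covariate, the log2 fold change went from -4.74 to -3.04 for Cubn. It went from -3.65 to -1.95 for Mep1b and from -3.43 to -1.37 for Maf. No cause was tested.

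Dok3, an adaptor protein of immune cells, was at 5.52, 4.92 and 0 CPM in libraries 3, 4 and 5 and had no count in libraries 9, 10 and 11, while the summed pan-hematopoietic markers overlapped between the groups.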
